A study of Sus scrofa with 40 samples.

Results

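The transcripts of single pig (Sus scrofa) oocytes labelled deficient in mitochondrial DNA (mtDNA) were compared with those of oocytes labelled mtDNA-normal among the libraries whose column names carry the date 17 September. These are 17 of the 40 libraries of the study, 8 labelled deficient and 9 labelled normal, and each is 1 oocyte. All came from commercial hybrid pigs (Large White, Duroc and Berkshire), were mature oocytes at metaphase II, and received no treatment that the labels name. The words BCBneg (deficient) and BCBpos (normal) in the titles belong to the brilliant cresyl blue dye test. The labels name no animals, and the first number in each title, whose meaning is not stated, was 1 for 2 deficient oocytes, 3 for 3 deficient and 4 normal oocytes, and 4 for 3 deficient and 5 normal oocytes. The other libraries are 12 single oocytes of 22 September, 6 of each state, and 11 pools of oocytes. The question, per the series' design text, was how the transcriptomes of the states differ.

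Mitochondrial DNA encodes subunits of the respiratory chain and is copied many times while an oocyte grows, because the early embryo draws on that stock before it copies mtDNA again. Growing oocytes bleach brilliant cresyl blue, so fully grown oocytes stay blue and those that lose the colour are taken as still growing. A metaphase II oocyte makes almost no new RNA, so what is sequenced is largely mRNA stored during growth and not yet broken down.

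The libraries held 797353 to 3067523 counts in named genes, and 10053 to 14971 genes had at least 1 count. Normal oocyte 1 had the highest total and the lowest mean correlation with the other oocytes (Spearman rho over genes, 0.723), followed by deficient oocyte 7 (0.726) and normal oocyte 7 (0.738), against 0.776 to 0.815 in the other 14. Growth factors of the oocyte were present in all 17 libraries. GDF9 stood at 411 ± 91.3 CPM (counts relative to the library total; SD, n = 17) and BMP15 at 645 ± 167 CPM. The egg coat gene ZP4 stood at 281 ± 91.9 CPM and the arrest kinase MOS at 235 ± 84.5 CPM, while the germ cell helicase DDX4 was near 0 at 0.50 ± 1.18 CPM. Of 23 cumulus and granulosa cell markers, 22 were in the table and 15 had a count. Their summed level ran from 21.3 to 64.4 CPM in deficient against from 14.7 to 46.8 CPM in normal oocytes. AMH, AMHR2, INHBB, TNFAIP6, SDC4, GATM and AREG were at 0 in every oocyte, and only INHBA, an activin subunit, averaged above 10 CPM (15.3 ± 7.18). Theca and stroma markers summed to 9.76 to 23.9 CPM in deficient against 1.96 to 22.4 CPM in normal oocytes, nearly all of it COL1A2, a collagen chain, with LUM and INSL3 at 0. Leukocyte and blood markers summed to at most 4.59 CPM.

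RN18S took a larger share of the counts in deficient than in normal oocytes, and the share of LOC102158401, the most abundant row, was lower on average without passing its test. RN18S, the RNA of the small ribosomal subunit, held 2.30% at the lowest, 3.63% at the median and 4.35% at the highest among the 8 deficient oocytes. Among the 9 normal oocytes it held 2.06%, 2.53% and 3.02%. Of the deficient oocytes, 6 lay above every normal oocyte, and deficient oocyte 5, with 2.30%, lay among the lowest normal ones. The means were 3.48 ± 0.650% and 2.52 ± 0.297% (SD), a difference of 0.962 percentage points (two-sided exact permutation test over 24310 splits, p = 0.00206, adjusted p = 0.0103 over 5 library measures). Such a test exchanges single oocytes, so its p measures only the spread between these cells. The difference was 0.850 points among oocytes of title number 3 (exact p = 0.171, adjusted p = 0.214) and 1.17 points among those of title number 4 (exact p = 0.0357, adjusted p = 0.179).

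LOC102158401, annotated as protein-coding on an unplaced sequence of Sscrofa11.1, took most of the counts in nearly every library. What this transcript is was not settled here, so the share of all ribosomal RNA cannot be given. It held 49.4% at the lowest, 61.1% at the median and 64.6% at the highest in deficient oocytes, and 58.1%, 63.8% and 76.0% in normal oocytes. The means were 59.4 ± 4.87% and 65.3 ± 5.99% (difference -5.89 percentage points, two-sided exact permutation test, p = 0.0427, adjusted p = 0.107). The groups overlapped widely, and the highest value was that of normal oocyte 1. Since this row is most of a library, a smaller share of it raises the CPM of all other genes. With it taken out of the total, RN18S made up 8.54 ± 1.14% of the remaining counts in deficient and 7.38 ± 1.11% in normal oocytes (two-sided exact permutation test, p = 0.0508, chosen after seeing the data), so the gap in RN18S was then not past the threshold.

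**Figure D1:**
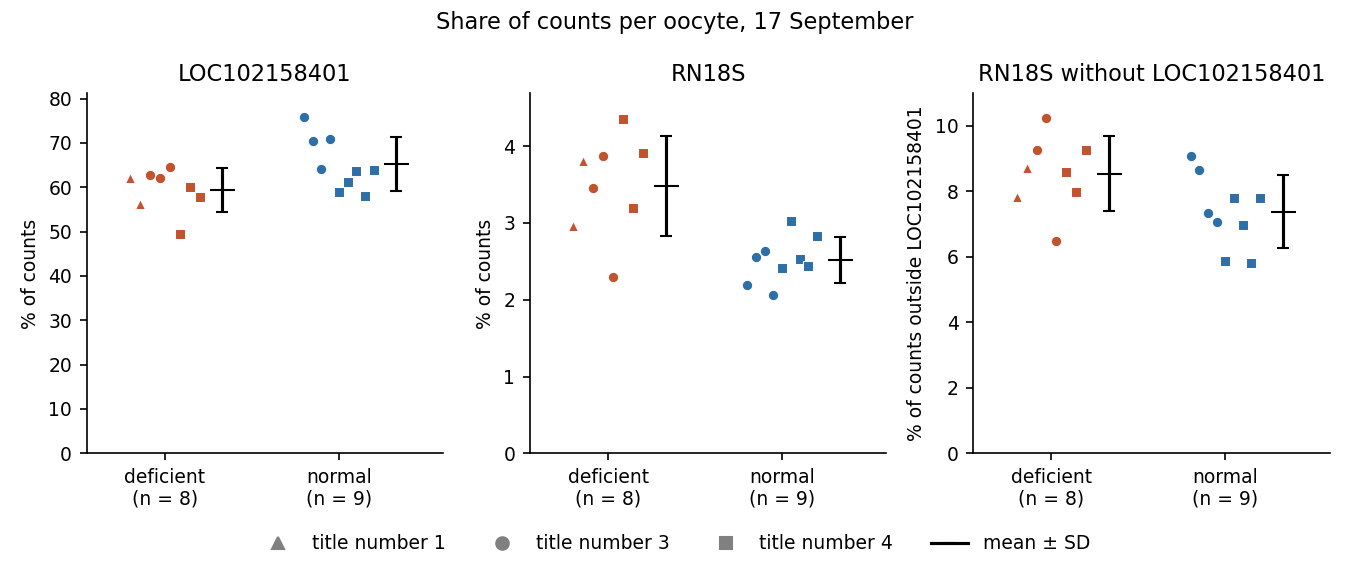
Share of counts in each oocyte (%, y axis) taken by LOC102158401 (left), by RN18S (middle) and by RN18S among counts outside LOC102158401 (right), in 8 deficient and 9 normal oocytes. Each symbol is 1 oocyte, its shape gives the first title number, and bars are mean ± SD. RN18S runs from 2.30% to 4.35% in deficient and from 2.06% to 3.02% in normal oocytes.

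The same shares were measured in the oocytes of 22 September. RN18S held 4.43 ± 0.513% in 6 deficient and 3.52 ± 0.552% in 6 normal oocytes (two-sided exact permutation test over 924 splits, p = 0.0216, adjusted p = 0.0433 over 2 shares). The difference, 0.914 percentage points, had the direction and nearly the size of that of 17 September. Among counts outside LOC102158401, RN18S made up 10.8 ± 2.93% and 9.49 ± 1.56% on 22 September (exact permutation p = 0.396, chosen after seeing the data), a gap within the spread. LOC102158401 held 57.3 ± 8.99% and 62.7 ± 3.72% (exact permutation p = 0.206). Summed by state and title number, the oocytes of 17 September gave 3 deficient sums with 3.10%, 3.40% and 3.89% RN18S and 2 normal sums with 2.34% and 2.68%. These did not overlap, and the exact permutation p of 0.1 is the smallest that 5 sums allow. Total counts (exact permutation p = 0.537) and genes detected (13152 ± 1486 against 12694 ± 987, exact permutation p = 0.465) did not differ beyond their spread.

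Few genes separated the states. Over the 5 sums, edgeR's quasi-likelihood test found 0 of 12427 genes past an adjusted p of 0.05, a background of 0%, while 352 had an unadjusted p under 0.05. DESeq2 and limma-voom each called 2 genes over the same sums, LOC106506288 and LOC102167309, both lower. With each oocyte as a sample, edgeR called 2 of 6846 genes, a background of 0.0292%, and they were again these 2. An unadjusted p under 0.05 was reached by 407 genes (5.95%), 173 higher and 234 lower in deficient oocytes. DESeq2 called 13 genes over oocytes, 1 higher and 12 lower, and limma-voom called 1, LOC106506288. The p-values over oocytes measure only the spread between these cells. The fitted differences below are on the log2 scale after TMM scaling, which sets the median of all genes near 0 (-0.0024), and CPM are of the plain total. Without a scaling factor that median was 0.24, so a gene with equal CPM in both states lies below most other genes after TMM scaling. Fitted as a gene, RN18S was not among the 2 called over oocytes. Its log2 difference ran from 0.047 to 0.47 over 28 alternative fits over oocytes, and it passed in 0 of them.

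**Figure D2:**
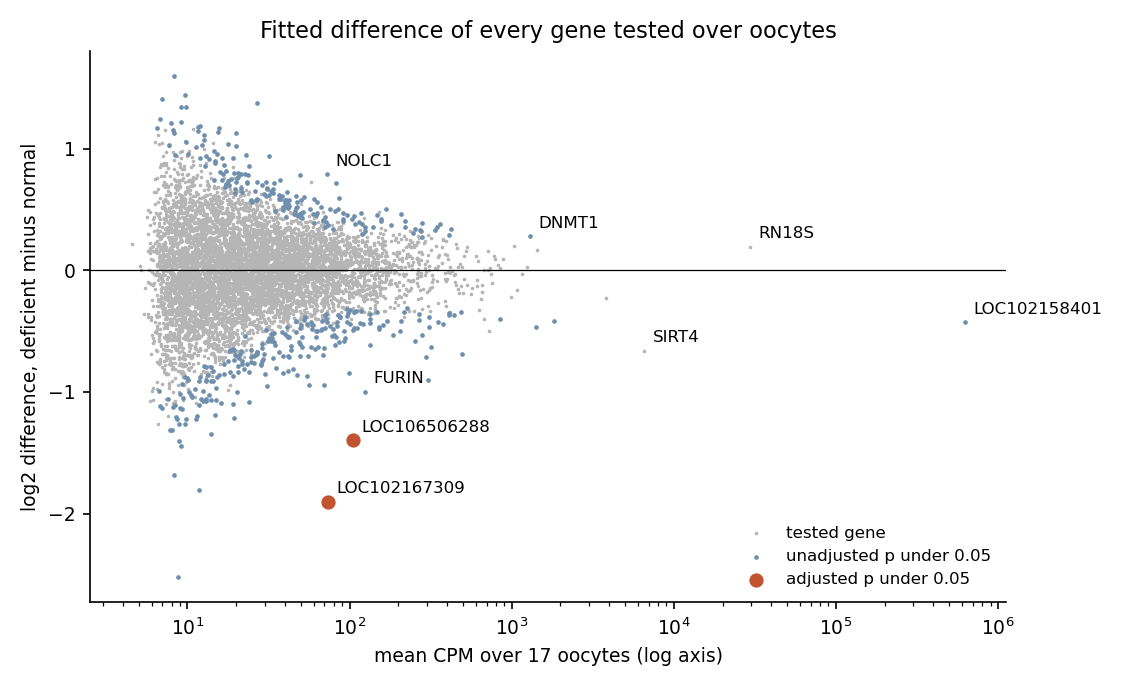
Fitted log2 difference between deficient and normal oocytes (y axis) against mean CPM over 17 oocytes (x axis, log scale) for the 6846 genes tested. Of all points, 2 passed an adjusted p of 0.05 in edgeR's quasi-likelihood test, LOC106506288 at -1.40 and LOC102167309 at -1.90, and both were lower in deficient oocytes.

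LOC106506288, a long non-coding RNA in the Sscrofa11.1 annotation, fell in deficient oocytes. Its CPM was 39.7 at the lowest, 65.9 at the median and 80.0 at the highest among deficient oocytes, against 86.2, 141 and 228 among normal oocytes. Every deficient oocyte lay below every normal one. The raw counts behind these values were 41 to 121 in deficient and 121 to 479 in normal libraries. The means were 64.1 ± 14 (SD, n = 8) and 142 ± 48.0 CPM (n = 9), or 175 ± 44.1 and 446 ± 145 CPM without LOC102158401 and RN18S in the total. The log2 difference was -1.40 (SE 0.20, edgeR quasi-likelihood test over oocytes, adjusted p = 0.000225). It was -1.47 over the sums (SE 0.22, edgeR, adjusted p = 0.0677). Among title number 3 it was -1.41 (SE 0.32, edgeR, adjusted p = 0.492) and among title number 4 it was -1.56 (SE 0.28, edgeR, adjusted p = 0.0245). With any 1 oocyte left out the edgeR adjusted p stayed between 9.28e-05 and 0.00127.

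This was the 1 gene with a mean CPM of at least 10 whose oocytes were lower in every deficient than in every normal library, out of 5672 such genes (0.0176%). In the other direction 3 genes did not overlap (0.0529%): CBL, a ubiquitin ligase of growth factor receptors, QRICH1, a stress-response regulator, and UIMC1, a ubiquitin-binding protein of DNA repair, all named after their values were seen. CBL stood at 18.0 ± 3.22 against 9.26 ± 3.14 CPM, QRICH1 at 71.9 ± 9.28 against 44.3 ± 14.1 and UIMC1 at 27.7 ± 6.55 against 13.5 ± 3.48. None of these 3 passed the edgeR test (adjusted p = 0.833, 0.812 and 0.797), and their groups overlapped once LOC102158401 and RN18S were taken out of the total. On the same smaller total LOC106506288 still did not overlap.

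The genes on either side of LOC106506288 in Sscrofa11.1 do not overlap it. ZNF804A, a zinc finger gene, had 0 counts in all 17 oocytes. FSIP2, a sperm tail protein, stood at 303 ± 91.5 CPM in deficient against 326 ± 71.5 CPM in normal oocytes (log2 difference -0.34, SE 0.17, edgeR adjusted p = 0.833).

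LOC102167309, also annotated as a long non-coding RNA, was the second gene that fell. Its CPM ran from 4.83 through a median of 34.3 to 58.9 in deficient oocytes and from 12.4 through 115 to 239 in normal oocytes. Normal oocytes 1 and 6, at 12.4 and 25.05 CPM, lay within the deficient range, and the other 7 lay at 84.2 or above, beyond all deficient oocytes. The means were 33.2 ± 18.7 and 110 ± 67.4 CPM (SD), or 90.0 ± 50.2 and 334 ± 196 CPM on that smaller total. The log2 difference was -1.90 (SE 0.37, edgeR over oocytes, adjusted p = 0.0350) and -1.83 over the sums (SE 0.32, edgeR adjusted p = 0.226). The call was lost in 11 of the 17 fits that left out 1 oocyte (edgeR adjusted p from 0.00160 to 0.120), in limma-voom (adjusted p = 0.428), and within title number 3 (-1.29, SE 0.43, edgeR adjusted p = 0.991) and title number 4 (-2.05, SE 0.52, edgeR adjusted p = 0.394).

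In Sscrofa11.1 this locus overlaps UBE4A, a ubiquitin chain elongation factor, and ATP5L, a subunit of the mitochondrial ATP synthase, and without a strand setting their reads cannot be told apart. Neither neighbour passed the test. UBE4A stood at 26.9 ± 10.8 CPM in deficient against 26.5 ± 10.4 CPM in normal oocytes (log2 difference -0.22, SE 0.27, edgeR adjusted p = 0.952). ATP5L stood at 18.3 ± 12.8 and 25.1 ± 10.1 CPM (log2 difference -0.67, SE 0.37, edgeR adjusted p = 0.868). Within states, the 2 non-coding RNAs did not move together: the deviations of their log2 CPM from the state means correlated at r = -0.44 over the 17 oocytes, which share library and total. With log2 total counts, LOC106506288 correlated at r = -0.15 and LOC102167309 at r = -0.21.

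**Figure D3:**
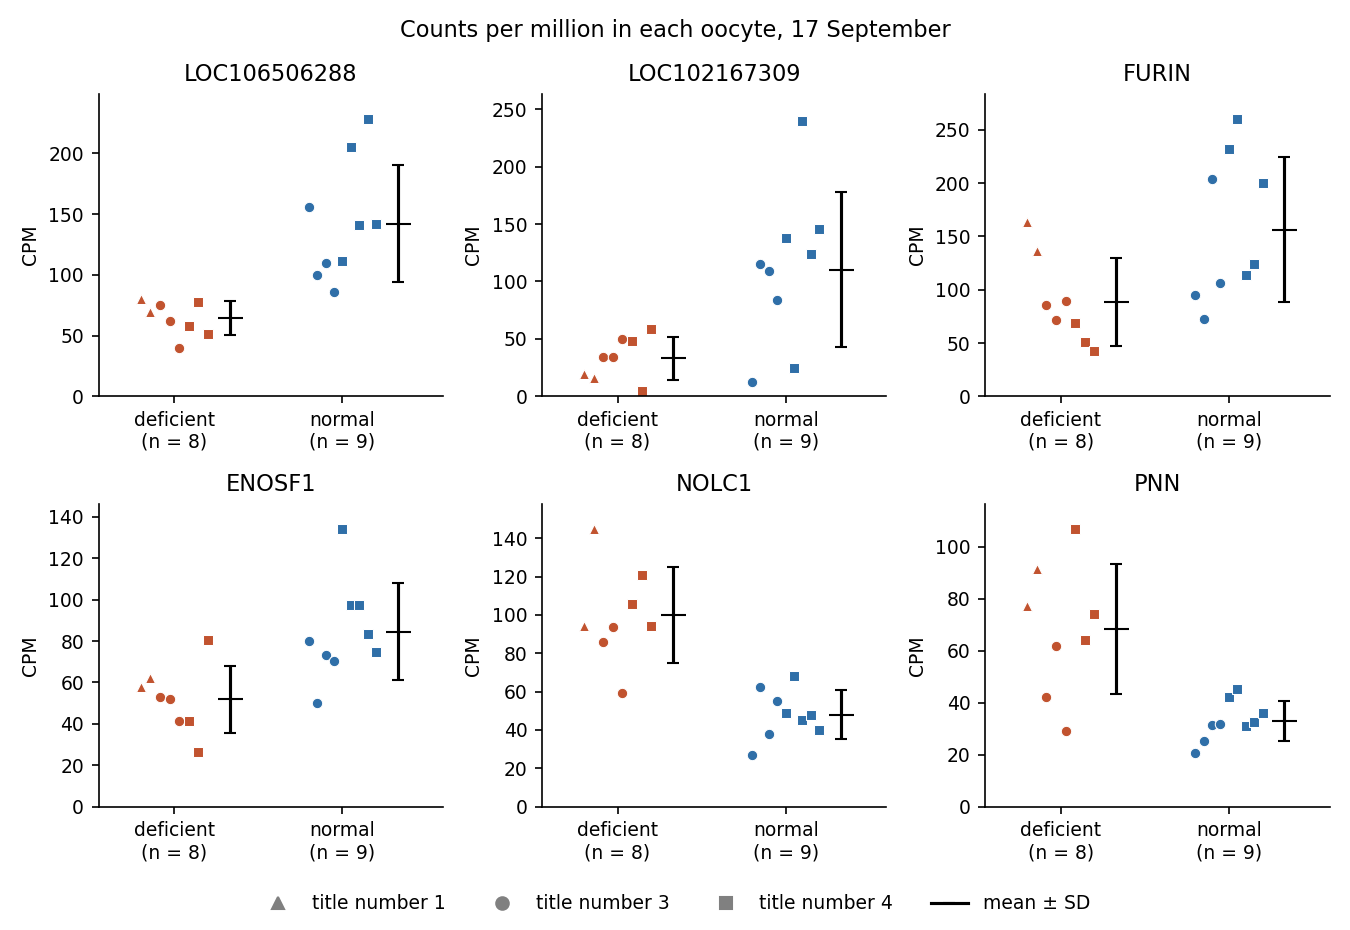
CPM (y axis) of 6 genes in each of 8 deficient and 9 normal oocytes, with 1 symbol per oocyte, its shape giving the first title number, and bars for mean ± SD. The 8 deficient oocytes lie between 39.7 and 80.0 CPM for LOC106506288, below the lowest normal oocyte at 86.2, and the groups overlap for the other 5 genes.

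Of the genes next in order of p that were lower in deficient oocytes, none passed edgeR's test with state as the only term. ENOSF1, a mitochondrial member of the enolase family, came nearest, with 26.6, 52.3 and 80.3 CPM at the lowest, median and highest in deficient and 50.2, 79.9 and 134 CPM in normal oocytes (log2 difference -0.94, SE 0.20, edgeR adjusted p = 0.0719). FURIN, a protease that cleaves precursors of secreted growth factors, stood at 42.6, 79.0 and 164 CPM in deficient against 72.6, 124 and 260 CPM in normal oocytes. Its 3 deficient oocytes of title number 4 lay at 42.6 to 68.4 CPM, below all 9 normal ones, and the 2 of title number 1 lay at 136 and 164 CPM. Its log2 difference was -0.998 over all oocytes (SE 0.23, edgeR adjusted p = 0.133), -0.87 within title number 3 (adjusted p = 0.991) and -1.95 within title number 4 (SE 0.28, edgeR adjusted p = 0.00192). LOC106509682 stood at 225 ± 92.6 and 371 ± 159 CPM (log2 difference -0.90, edgeR adjusted p = 0.129). Within states its log2 CPM correlated with log2 total counts at r = -0.74 over 17 oocytes.

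CHPT1, which makes phosphatidylcholine, stood at 43.1 ± 18.9 against 68.5 ± 18.2 CPM, and 6 of its 8 deficient oocytes lay below every normal one. APH1A, a subunit of gamma-secretase, stood at 35.6 ± 9.41 against 57.3 ± 19.97 CPM. VRK2, a serine/threonine kinase, stood at 405 ± 114 against 576 ± 204 CPM. LOC102158538 and LOC100516606 stood at 77.7 ± 32.3 against 120 ± 34.5 CPM and at 42.0 ± 13.3 against 66.4 ± 20.8 CPM. These 5 had log2 differences from -0.94 to -0.69 and edgeR adjusted p from 0.172 to 0.186 over oocytes, and DESeq2 called them as it did ENOSF1, FURIN and LOC106509682. It also called 2 genes that the rule for named genes did not take. These were LOC100737565 (log2 difference -2.57, SE 0.51, DESeq2 adjusted p = 0.00137) and LOC102166034 (-1.10, SE 0.27, DESeq2 adjusted p = 0.0411).

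In the other direction, no gene passed edgeR's test over oocytes, and DESeq2 called 1, NOLC1, a nucleolar phosphoprotein that takes part in ribosome production. It stood at 59.4, 94.0 and 145 CPM at the lowest, median and highest in deficient oocytes and at 26.7, 47.9 and 67.9 CPM in normal oocytes. Of the deficient oocytes, 7 lay above every normal one, and deficient oocyte 5 lay within their range. The log2 difference was 0.79 (SE 0.19, edgeR adjusted p = 0.162, DESeq2 adjusted p = 0.0411), with 0.43 in title number 3 and 0.95 in title number 4. CIRH1A, another nucleolar protein of ribosome assembly, stood at 26.03 ± 11.6 against 10.6 ± 5.65 CPM (log2 difference 1.04, SE 0.35, edgeR adjusted p = 0.782).

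The other genes among the 10 of smallest p in this direction did not pass either. PNN, a splicing-associated protein, stood at 29.3, 69.0 and 107 CPM in deficient against 20.5, 31.9 and 45.5 CPM in normal oocytes, with 6 deficient oocytes above every normal one (log2 difference 0.78, SE 0.20, edgeR adjusted p = 0.216). BUD13, a splicing factor, stood at 80.4 ± 17.2 against 47.8 ± 15.3 CPM. ZFP36L2, which binds AU-rich mRNA and speeds its decay, stood at 109 ± 29.03 against 58.5 ± 25.6 CPM, and ANGEL2, an RNA end-processing enzyme, at 46.3 ± 14.4 against 23.4 ± 8.59 CPM. KPNA7, the oocyte's importin alpha, stood at 258 ± 62.0 against 161 ± 48.6 CPM, with 4 deficient oocytes above the normal range. SALL2, a zinc finger factor, stood at 44.7 ± 27.1 against 20.1 ± 6.60 CPM, NMT1, which attaches myristate to proteins, at 28.3 ± 9.90 against 12.3 ± 6.25 CPM, and TMEM108, a membrane protein, at 23.3 ± 11.5 against 8.98 ± 4.22 CPM. Their edgeR adjusted p ran from 0.404 to 0.782.

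No member of any of the 25 gene lists passed the edgeR test over oocytes or over sums, so the lists are described by their counts and medians beside those of all genes (3399 higher, 3447 lower, median -0.0024, quartiles -0.23 and 0.21). Only members that passed the filter on low counts are counted. Directions below are the signs after TMM scaling. Without a scaling factor, 5241 of all genes tested were higher and 1605 lower, and the counts of a list on that scale are given as its unscaled counts.

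Among mitochondrial lists, that of mtDNA replication, transcription and nucleotide supply had 13 tested members of 36, 5 higher and 8 lower (median -0.05; unscaled 10 and 3). POLG, the mtDNA polymerase, stood at 73.3 ± 24.8 CPM in deficient against 70.1 ± 21.4 CPM in normal oocytes (log2 difference -0.15, SE 0.20, or 0.08 without a scaling factor). PRIMPOL, a primase that restarts stalled replication, stood at 28.3 ± 13.3 and 13.9 ± 7.37 CPM, with 5 deficient oocytes above every normal one (log2 difference 0.79, SE 0.33, edgeR adjusted p = 0.825). GABPA, a transcription factor of respiratory genes, stood at 10.203 ± 8.81 and 14.99 ± 7.87 CPM (log2 difference -0.84, SE 0.45, edgeR adjusted p = 0.843). TFAM, which packages mtDNA, was at 0 in all 17 oocytes. Whether its row could receive reads was not tested, so absence of its mRNA is not shown. TWNK is not analysed here.

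Nuclear subunits of respiratory complex I were split, with 5 higher and 3 lower of 8 tested members (median 0.02; unscaled 7 and 1). Those of complexes II to V had 2 higher and 7 lower of 9 (median -0.39; unscaled 4 and 5). SDHB, the iron-sulfur subunit of complex II, stood at 35.9 ± 9.39 and 43.5 ± 15.2 CPM (log2 difference -0.52, SE 0.24, edgeR adjusted p = 0.832). The mitochondrial ribosome had 10 higher and 23 lower of 33 (median -0.19, quartiles -0.35 and 0.16; unscaled 20 and 13, with 24 below the median of all genes). The cytosolic ribosome had 5 higher and 18 lower of 23 (median -0.15; unscaled 12 and 11, with 18 below the median of all genes). RPS24, a protein of its small subunit, stood at 332 ± 121 and 369 ± 153 CPM (log2 difference -0.42, SE 0.18, edgeR adjusted p = 0.826).

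Genes of fusion, fission and mitophagy had 10 higher and 7 lower of 17 tested members (median 0.19; unscaled 14 and 3). RHOT1, which tethers mitochondria to motors, stood at 91.7 ± 17.1 and 99.8 ± 23.4 CPM (log2 difference -0.38, SE 0.17). Import, chaperones and proteases of the mitochondrion had 10 higher and 8 lower of 18 (median 0.02; unscaled 15 and 3). In energy metabolism, glycolysis and the pentose phosphate pathway had 6 higher and 7 lower of 13 (median -0.15; unscaled 8 and 5). An unadjusted p under 0.05 was reached by 3 of these 13, all lower, beside 5.95% of all genes, among them ALDOC, an aldolase, and GPI, glucose-6-phosphate isomerase. ALDOC stood at 41.2 ± 21.2 and 57.5 ± 27.3 CPM and GPI at 5.49 ± 3.93 and 11.95 ± 8.08 CPM. The citrate cycle had 7 higher and 10 lower of 17 (median -0.09; unscaled 11 and 6). Fatty acid oxidation had 6 and 4 of 10 (median 0.08; unscaled 7 and 3), and lipid storage and cholesterol synthesis 7 and 10 of 17 (median -0.21; unscaled also 7 and 10).

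Oocyte-specific factors and the egg coat had 3 higher and 12 lower of 15 tested members (median -0.18; unscaled 9 and 6, with 12 below the median of all genes). An unadjusted p under 0.05 was reached by 5 of these 15, 1 higher and 4 lower, beside 5.95% of all genes. ZP4 stood at 249 ± 44.4 in deficient and 310 ± 115 CPM in normal oocytes (log2 difference -0.53, SE 0.16, edgeR adjusted p = 0.574), and GDF9 at 390 ± 52.2 and 430 ± 116 CPM (log2 difference -0.35, SE 0.15, edgeR adjusted p = 0.826). BMP15 stood at 636 ± 77.9 and 654 ± 224 CPM and ZP3, another egg coat gene, at 65.1 ± 18.7 and 61.3 ± 25.5 CPM. On the plain total, the deficient range of GDF9 (314 to 444 CPM) lay inside the normal range (289 to 642 CPM), and so it did for BMP15 (525 to 769 within 411 to 972 CPM). Without LOC102158401 and RN18S in the total, GDF9 ran from 678 to 1311 CPM in deficient and from 946 to 1798 CPM in normal oocytes. Its deficient range then reached below the normal one. BMP15, at 1287 to 2204 within 1225 to 2724 CPM, stayed inside.

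The list of meiosis and metaphase II arrest had 21 higher and 12 lower of 33 tested members (median 0.03; unscaled 28 and 5). MOS stood at 281 ± 78.7 and 194 ± 69.8 CPM (log2 difference 0.33, SE 0.16, edgeR adjusted p = 0.832). The stress response and chaperones had 12 higher and 4 lower of 16 (median 0.15, quartiles 0.01 and 0.32; unscaled 14 and 2), with HSP90AA1, a cytosolic chaperone, at 147 ± 30.2 and 95.8 ± 38.9 CPM (log2 difference 0.38, SE 0.18, edgeR adjusted p = 0.832). Maternal-effect genes had 6 and 6 of 12 (unscaled 9 and 3), and stored mRNA, polyadenylation and deadenylation 12 and 14 of 26 (unscaled 19 and 7). UHRF1, which guides DNA methylation to new strands, stood at 270 ± 47.6 and 176 ± 50.5 CPM, with 4 deficient oocytes above the normal range (log2 difference 0.40, SE 0.14, edgeR adjusted p = 0.782).

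The DNA methylation and histone-modifying list had 10 higher and 9 lower of 19 (unscaled 15 and 4), and calcium release and egg activation 4 and 10 of 14 (unscaled 11 and 3). The proteasome had 12 and 10 of 22 (unscaled 16 and 6), antioxidant and glutathione systems 6 and 8 of 14 (unscaled 12 and 2), and the p53 axis and apoptosis 2 and 2 of 4 (unscaled 3 and 1). Of the marker lists of other cells, only INHBA (log2 difference 0.33, SE 0.39) and COL1A2 (0.25, SE 0.39) reached the test over oocytes, neither past it. Over sums, 6 cumulus and granulosa markers were tested, 6 higher and 0 lower (median 0.42), and 0 passed. Only INHBA among them averaged above 10 CPM. All genes tested over sums had 6268 higher and 6159 lower (median 0.0047). DNMT1, the maintenance DNA methyltransferase, stood at 1553 ± 341 and 1078 ± 286 CPM, with 2 deficient oocytes above the normal range (log2 difference 0.28, SE 0.12, edgeR adjusted p = 0.832). Within states its log2 CPM correlated with the share of LOC102158401 at r = -0.84 over the 17 oocytes, whose CPM share that total. On the CPM scale without LOC102158401 and RN18S in the total, DNMT1 stood at 4152 ± 461 and 3329 ± 516.

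**Figure D4:**
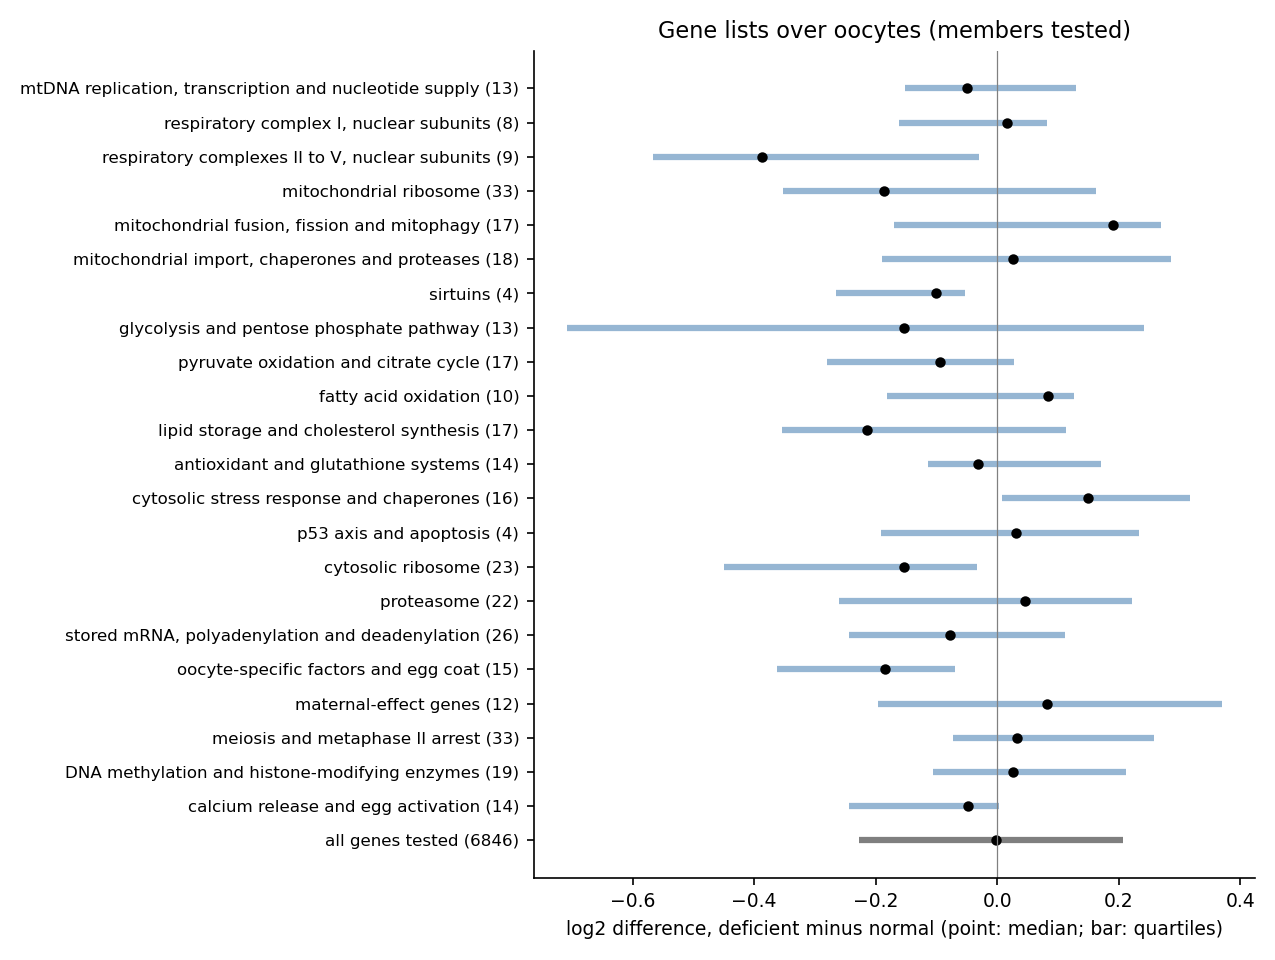
Median (point) and quartiles (bar) of the fitted log2 differences between deficient and normal oocytes (x axis) for each gene list with at least 4 tested members, their number in brackets, and for all 6846 genes (bottom). The widest gap from 0 is the median of -0.39 of the 9 subunits of complexes II to V, and no member of any list passed the test.

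Other genes spread widely among the oocytes of 1 state. SIRT4, a mitochondrial sirtuin, ran from 1779 through a median of 3132 to 20341 CPM in deficient oocytes and from 3520.2 through 6811 to 12494 CPM in normal oocytes. Of the deficient oocytes, 4 lay below every normal one and deficient oocyte 8 lay above every one. The log2 difference was -0.66 (SE 0.39, edgeR adjusted p = 0.869), -1.29 without deficient oocyte 8, and -1.23 in title number 3 against 0.47 in title number 4, which holds that oocyte. The 4 tested sirtuins were all lower (0 higher, median -0.10; unscaled 3 higher and 1 lower).

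TTI2, which helps fold large kinases of the DNA damage and growth pathways, ran from 192 through 210 to 603 CPM in deficient against from 266 through 312 to 572 CPM in normal oocytes. Again 5 deficient oocytes lay below every normal one and deficient oocyte 8 lay above (log2 difference -0.63, SE 0.22, edgeR adjusted p = 0.782). LOC102164107, a pseudogene in Sscrofa11.1, had 45, 38 and 34 counts in deficient oocytes 1, 2 and 4 (33.0, 25.2 and 17.5 CPM), 0 in the other 5, 1 count in each of normal oocytes 2 and 6, and 0 in the other 7. It did not pass the filter over oocytes, and counts of a pseudogene are uncertain. MDM2, the ligase that degrades p53, was below the filter too, at 1.57 ± 1.73 and 1.29 ± 1.37 CPM.

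The state differences were set beside those of the 22 September oocytes, fitted in the same way. LOC106506288 stood at 97.3 ± 34.9 CPM in 6 deficient against 132 ± 40.4 CPM in 6 normal oocytes of that date (log2 difference -0.57, SE 0.28, edgeR adjusted p = 0.768). LOC102167309 stood at 61.3 ± 56.7 and 109 ± 46.3 CPM (log2 difference -0.996, SE 0.45, edgeR adjusted p = 0.732). Both were again lower in deficient oocytes on average, and neither passed. The difference of LOC106506288 was smaller on 22 September, by 0.84 over oocytes (interaction, SE 0.34, edgeR unadjusted p = 0.0174, adjusted p = 0.593) and by 1.06 over sums (SE 0.40, unadjusted p = 0.0144, adjusted p = 0.999). Neither interaction passed after adjustment. The gene stands here for its small p on 17 September, so the unadjusted p-values are not a fair test of a change between dates. Of the 10 genes named as lower on 17 September, 8 had a fitted difference below 0 on 22 September, 7 lay within 1 standard error of 0, and 4 had the lower mean CPM in deficient oocytes. Of the 10 named as higher, 6 had a difference above 0 and 6 lay within 1 standard error of 0. Among all 6103 genes tested on both dates, 48.0% of those lower on 17 September were lower on 22 September and 46.1% of those higher were higher.

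The change of the state difference between dates was itself tested. Over 9 sums by date, state and title number, 0 of 12911 genes passed (0%; edgeR, smallest adjusted p = 0.755, and 486 with an unadjusted p under 0.05), and limma-voom called 0. Over 29 oocytes edgeR called 0 of 8624 genes, and 619 had an unadjusted p under 0.05. LOC106509682 had a log2 difference of -0.90 on 17 September and 0.61 on 22 September (interaction 1.52, SE 0.33, edgeR over oocytes, adjusted p = 0.0776). POLG had -0.15 and 0.88 (interaction 1.04, SE 0.33, edgeR over oocytes, adjusted p = 0.429), and PRIMPOL had 0.79 and -1.05 (interaction -1.83, SE 0.49, adjusted p = 0.253). SIRT4 and TTI2, both of the fixed set chosen with earlier results known, had -1.10 (SE 0.36) and -0.83 (SE 0.27) on 22 September. Both differences were also below 0 on 17 September, but neither passed there, and that of SIRT4 was 0.47 in title number 4. In the pools, which were prepared with another kit and normalised apart, LOC106506288 stood at 18.4 ± 7.30 CPM in 5 deficient against 14.9 ± 8.63 CPM in 6 normal pools (log2 difference 0.38, SE 0.48), and LOC102167309 averaged under 0.1 CPM in both.

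**Figure D5:**
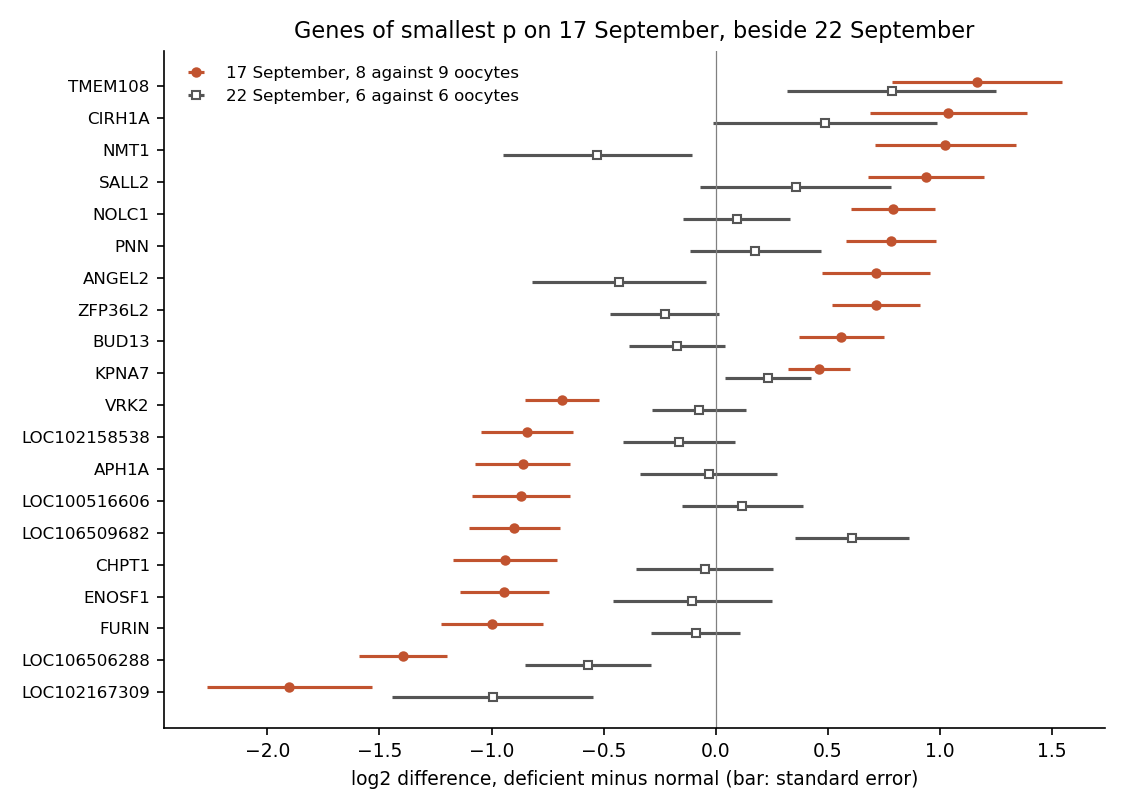
Fitted log2 difference between deficient and normal oocytes (x axis; bars are standard errors) for 20 genes on 17 September (filled circles, 8 against 9 oocytes) and for the same genes on 22 September (open squares, 6 against 6 oocytes). They are the 10 lower and the 10 higher genes of smallest p on 17 September with a mean CPM of at least 10. The genes were thus chosen for their small p on 17 September. On 22 September 7 of the 10 lower and 6 of the 10 higher genes lay within 1 standard error of 0.

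Compared as whole profiles, oocytes of 1 state were not detectably more alike than oocytes of different states. The mean Spearman correlation over 6846 genes was 0.797 within deficient, 0.778 within normal and 0.785 between states. Pairs within a state exceeded pairs across states by 0.0016 (one-sided exact permutation test over 24310 splits, p = 0.265, adjusted p = 0.530). Pairs within the deficient state exceeded those within the normal state by 0.0191 (two-sided exact permutation test, p = 0.545). Pairs that shared a title number but not a state correlated at 0.796 ± 0.0466 (27 pairs), close to the 0.799 ± 0.0470 of pairs that shared both (23 pairs), and pairs of 1 state with different title numbers at 0.779 ± 0.0409 (41 pairs).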

How the data were processed

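Metaphase II pig oocytes were sequenced one by one, after extraction in the tube, with the SoLo kit and its pig primer mix, per the labels' protocols. The authors deposited whole-number counts, 1 per gene and oocyte, without normalization. FastQC, Trim Galore, TopHat2 2.0.14, edgeR and build Sscrofa10.2 are named, per the submitters' processing notes, and the sources used here do not give the counting program or its strand setting. The row with no gene name held 0.648% to 6.04% of all counts, its own included, and was left out, leaving 38794 rows. Names were matched to the Sscrofa11.1 table (21206 rows), used for gene types, neighbours and the synonyms of listed symbols.

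The 17 oocytes were compared in R 4.3.3 with edgeR 4.0.16 (quasi-likelihood test, TMM scaling, default expression filter, Benjamini-Hochberg adjustment over all genes tested, threshold 0.05). Counts were first summed by state and first title number (3 deficient and 2 normal sums), because cells are not replicates. The fit over oocytes stands beside it. Doublets were not called, since each library is 1 oocyte. Counts of 64 library pairs within a state all differed beyond sampling noise (chi-square per degree of freedom from 4.19 to 37.6). Library shares were compared by exact permutation, and such shares carry counting error besides. limma 3.58.1, DESeq2 1.42.0, other scalings, no filter, blocks, covariates and left-out libraries served as alternatives. Correlations of named genes used log2 CPM with a prior count of 0.5. The tests were tested on simulated data. The members, the 25 gene lists and the rule for named genes were chosen with earlier results of these data known. That rule took genes that passed and averaged at least 10 CPM, filled to 10 per direction by smallest p, the 2 members of smallest p in each list, and a fixed set. Of 789 list symbols, 701 were in the table. Some genes that the rule took are left out of the text.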

Additional observations from a re-analysis of the deposited data

Results flagged for a closer look

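Among 156 groups of values (78 measures in each state), 13 held 1 oocyte far from the others of its state by Dixon's test, or 8.33%. The cut-offs flag about 1 in 20 groups of independent, normally distributed values. CPM share library totals and need not be normally distributed, and all 13 flags were highest values. The share was therefore not read as an excess. Among the 8 deficient oocytes, oocyte 8 was highest for SIRT4 (20341 CPM, next 9155) and TTI2 (603 CPM, next 315). Deficient oocyte 6 was highest for DNMT1 (2333 CPM, next 1738), ALDOC (90.4 CPM, next 48.9) and XIAP, an inhibitor of caspases (56.2 CPM, next 13.9). Deficient oocyte 7 was highest for APAF1, which starts caspase activation (74.9 CPM, next 41.1), and IDH2, a mitochondrial isocitrate dehydrogenase (73.6 CPM, next 48.8). Deficient oocyte 2 was highest for SALL2 (108 CPM, next 46.4) and MDM2 (5.30 CPM, next 2.44). Among the 9 normal oocytes, oocyte 7 was highest for TTI2 (572 CPM, next 394), RPS24 (710 CPM, next 452) and MRPS17, a mitochondrial ribosomal protein (49.2 CPM, next 29.4). Normal oocyte 1 had the highest total, 3067523 counts, against 1743308 for the next. None of the genes named in the text separated the states fully in opposite directions on the 2 dates.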

How the results depend on the processing

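The median standard error of a log2 difference was 0.32 over the 17 oocytes and 0.52 over the 5 sums. LOC106506288 passed the threshold in 28 of 29 alternatives over oocytes, the exception being title number 3 alone, and LOC102167309 in 12 of 29. Over sums, where 0 genes passed, 8 genes passed without a filter, 2 with limma-voom and 2 with DESeq2. A replicate block on title numbers 3 and 4 gave 14. That fit had a single sum for each state and title number, so its p-values rest on very little replication. Over oocytes, where 2 passed, 14 passed without a filter, 1 with limma-voom, 13 with DESeq2, 1 without a scaling factor, 4 with a replicate block on title number in all oocytes, 3 with that block on title numbers 3 and 4, 1 with limma-voom and an estimated correlation within title number and state (0.0397), 0 in title number 3, 6 with log2 total counts as a covariate and 1 to 7 with an oocyte left out. Samples sharing a title number deviated together at r = 0.20 over only 2 pairs, so the numbers were not taken to pair the samples. Besides the genes called without it, the replicate block called FURIN and LOC106509682 over all oocytes (edgeR, adjusted p = 0.000145 and 0.0162). Over sums it called both of these and, among others, ENOSF1, CHPT1, VRK2, SIRT4 and LOC102158401. Without a filter, the fit over oocytes also called SIRT4 (log2 difference -0.65, edgeR adjusted p = 8.69e-07) and LOC102158401 (-0.40, edgeR adjusted p = 6.86e-09). The state by date test went from 0 to 3 genes without a filter.

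The RN18S difference was 0.850 points in title number 3 and 1.17 in title number 4, neither past the threshold, and 0.838 to 1.13 with an oocyte left out. That of the row with no gene name passed in title numbers 3 and 4 together (-1.76 points, exact permutation, adjusted p = 0.0490; -1.28 in all oocytes). The difference in genes detected turned to -463 in title number 4, and that of correlations within and across states to -0.0024 in title numbers 3 and 4 and ran from -0.0016 to 0.0035 with an oocyte left out. Log2 differences turned in title number 3 for DNAJC19 (0.10), FDFT1 (0.0038), MRPS17 (0.12) and POLG (0.30), in title number 4 for COL1A2 (-0.15), MRPL11 (0.17), SIRT3 (0.0402) and SIRT4 (0.47), without a scaling factor for POLG (0.0781), SIRT3 (0.11) and ZP3 (0.10), and for ZP3 without normal oocyte 4 (0.0643; range with an oocyte left out -0.269 to 0.0643). The cause of these turns was not tested.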
